A study of Mus musculus with 6 samples.

Results

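The 10 genes described here encode heat shock proteins of the cytosol and mitochondria and their partners: Hspa1a, Hspa1b, Hspa8, Hsph1, Hsp90aa1, Dnajb1, Hspb1, Bag3, Hspd1 and Hspe1. They were taken by name and found by NCBI gene identifier among the 17254 genes with a count in any library. The rule used no measured value, but the genes were proposed with earlier results of these data known, so the counts below describe them and do not test the choice. All 10 were present in the tables, and 9 of them were among the 11717 genes tested, which had a mean FPKM (a read density scaled by transcript length and library total) of at least 1. Hspb1 was not among them.

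RNA-seq was performed on mouse neural stem and progenitor cells (NSPCs) after 48 h of culture, with 2 libraries per group: mock-treated control, 5 µM paraquat (PQ) and 5 mM N-acetylcysteine (NAC). PQ cycles with oxygen inside cells and produces superoxide, whereas NAC is a thiol antioxidant, and the groups were compared to see how an oxidant and an antioxidant alter gene expression. All 6 libraries came from N2 medium with EGF and bFGF, and by the study's methods from 1 neonate-derived culture immortalized by Ink/Arf loss, which holds stem cells beside neuronal and oligodendroglial precursors. The labels of control 1 and PQ 1 give the strain C57BL/6 and spell the genotype Ink/Ark knockout, whereas the labels of the other 4 libraries give neither. Controls and treated cells therefore share the deletion, and a culture without it was not part of the comparison. The labels of control 1 and PQ 1 name an RNA column kit and Illumina chemistry, and those of control 2, PQ 2 and both NAC libraries name TRIZOL and BGISEQ-500. The study's methods instead give 1 stranded mRNA kit and an Illumina sequencer for all, so the covariate and the comparisons within a protocol rest on the labels. Nothing in the labels says that the 2 libraries of a group came from separate cultures. Each p-value below therefore sets a difference against a spread between libraries that may be technical, pooled over all groups. The control and PQ pairs each span both labelled protocols, whereas the NAC pair does not, so comparisons with NAC are unbalanced by labelled protocol.

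Expected counts summed to 9849392 in control 1, 10040827 in control 2, 10388731 in PQ 1, 9680436 in PQ 2, 10698241 in NAC 1 and 9907726 in NAC 2. Across genes, Pearson's r of log2 CPM (expected counts scaled by edgeR's TMM method to a common library total) was 0.989 for the control pair, 0.992 for the PQ pair and 0.992 for the NAC pair, and 0.966 to 0.980 for libraries of different groups. For deviations from the group mean, r between control and PQ libraries of the same labelled protocol was −0.079. Genes are not independent replicates, so these coefficients describe the libraries and test nothing.

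Heat shock proteins hold unfolded or newly made proteins, pass them on for folding or deliver them for degradation. HSP70 proteins bind and release their clients through ATP hydrolysis, J proteins start that cycle, exchange factors such as HSPH1 and BAG3 end it, HSP90 takes over selected clients, small heat shock proteins hold unfolded ones without ATP, and HSP60 with HSP10 folds proteins inside mitochondria. Heat and oxidants damage proteins and free the transcription factor HSF1, which binds arrays of inverted GAA units, called heat shock elements, near many of these genes.

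Markers fixed for 7 cell types were read in the same libraries. Of 8 NSPC markers 7 were tested, and Prom1, at 0.16 FPKM or less in every library, was not. The most abundant was the intermediate filament gene Vim, with a mean of 2073 FPKM. The summed level of the NSPC markers was 3298 and 3373 FPKM in control, 3657 and 3709 FPKM in PQ and 2563 and 2485 FPKM in NAC. Of the 7 tested in edgeR, at an adjusted p under 0.05, 1 rose and 2 fell in PQ over control, where 9.76% of all genes tested rose and 9.45% fell. In NAC over control 3 fell, or 1 by limma, beside 9.64% of all genes, while 4 of the 7 had a positive log2 fold change and the median was 0.07. Vim, the largest part of the sum, was at 2171 and 2323 FPKM in control, 2547 and 2647 FPKM in PQ and 1362 and 1389 FPKM in NAC. The neuronal list summed to 38.4 and 36.2 FPKM in control, 33.9 and 35.1 FPKM in PQ and 65.5 and 59.0 FPKM in NAC, nearly all of it Map2, the 1 gene of 6 that was tested, which rose in NAC. Rbfox3, which marks mature neurons, was at 0 in every library and Dcx at 0.08 FPKM or less. Tubb3, too low to be tested, had 2.38 and 1.30 FPKM in control, 0.72 and 0.47 FPKM in PQ and 0.32 and 0.44 FPKM in NAC, so that it was highest in control, unlike Map2. Syt1, also not tested, had 0.17 and 0.23 FPKM in control, 0.26 and 0.26 FPKM in PQ and 0.06 and 0.11 FPKM in NAC. All 6 astrocyte markers were tested, and their sum was 114 and 100 FPKM in control, 82.6 and 84.4 FPKM in PQ and 141 and 141 FPKM in NAC, most of it Slc1a3. In PQ over control 1 astrocyte marker rose and 1 fell, and in NAC over control 4 rose, beside 9.01% of all genes. The oligodendrocyte lineage list summed to 331 and 339 FPKM in control, 323 and 279 FPKM in PQ and 362 and 371 FPKM in NAC. Its most abundant gene was Olig2, and Mog was at 0 in every library. Of the 3 genes tested 2 rose in NAC over control, or 1 by DESeq2 and 1 by limma. Markers of microglia, endothelium and fibroblasts summed to at most 1.24, 0.62 and 1.91 FPKM in any library, and these genes did not pass the filter for testing. In PQ over NAC 12 of the 17 markers tested were called by edgeR, beside 16.0% of all genes higher and 15.7% lower. Of the NSPC markers 2 were higher and 2 lower, and of the astrocyte markers 1 was higher and 4 lower. Map2 and 2 oligodendrocyte lineage markers were lower. The part of these marker differences in the results below was not tested. In bulk RNA, fewer cells of a type and less RNA per cell cannot be told apart.

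Levels were first compared between the 10 genes on the length-scaled FPKM scale, as mean ± SD over 2 libraries per group. Hspa8, the constitutive HSP70 of the cytosol, was the most abundant, at 980.9 ± 115 FPKM in control, 1256 ± 21.3 FPKM in PQ and 1290.3 ± 43.1 FPKM in NAC. Next came Hsp90aa1, the stress-responsive cytosolic HSP90, at 417 ± 18.9 FPKM in control, then the mitochondrial chaperonin genes Hspd1, at 244 ± 15.9 FPKM, and Hspe1, at 154 ± 25.5 FPKM. A middle tier followed. It held Bag3, at 44.8 ± 5.98 FPKM in control, Hsph1, at 33.5 ± 1.40 FPKM, and Dnajb1, at 23.0 ± 1.47 FPKM. The stress-inducible HSP70 genes were far lower in control, with Hspa1b at 1.84 ± 0.361 FPKM and Hspa1a at 1.03 ± 0.255 FPKM. Hspb1 was last, at 0.055 ± 0.0778 FPKM. The order of the 10 genes was the same in control, PQ and NAC, and in none of the groups did the ranges of 2 neighbours in that order overlap.

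**Figure D1:**
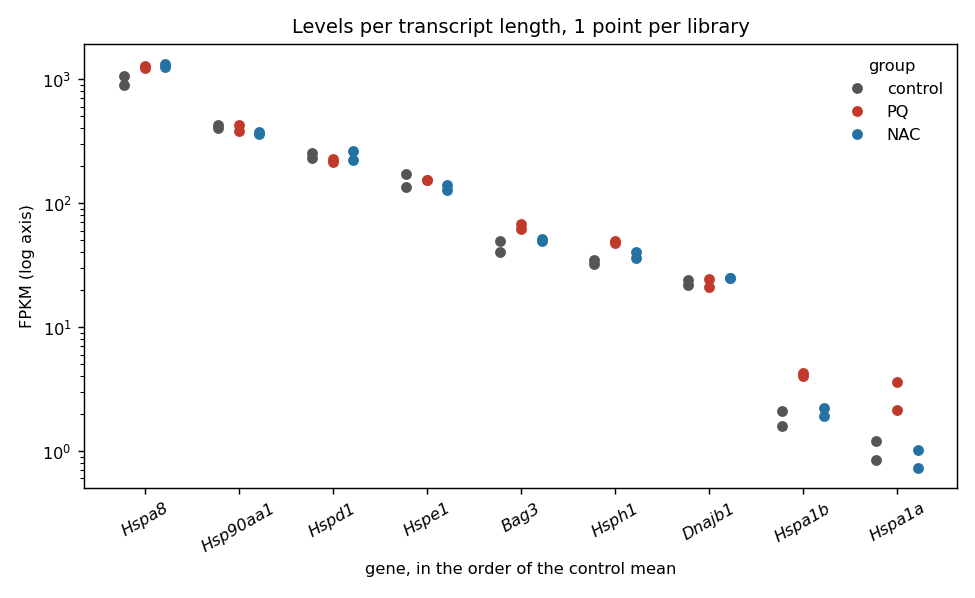
FPKM of the 9 tested genes in the 6 libraries on a log axis, in the order of the control means, with 1 point per library coloured by group. Hspa8 lies highest, with a control mean of 980.9 FPKM, and Hspa1b and Hspa1a lie lowest, with their PQ points above their control and NAC points.

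Together the 10 genes gave 1855 and 1945 FPKM in control, 2167 and 2183 FPKM in PQ and 2215 and 2086 FPKM in NAC. That was 0.422% to 0.522% of all FPKM of a library. Hspa8 alone made up 48.5% and 54.6% of the sum in control, 58.6% and 56.8% in PQ and 59.6% and 60.4% in NAC. The ratio of Hspa8 to the summed inducible genes Hspa1a and Hspa1b, in FPKM, was 370 and 322 in control, 167 and 195 in PQ and 500.3 and 386 in NAC. Both PQ libraries had the lowest ratios of the 6. The shares and ratios are descriptions and were not tested.

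On TMM-scaled counts tested with edgeR, called at an adjusted p under 0.05 over all genes tested, 5 of the 9 tested heat shock genes rose in PQ over control: Hspa1a, Hspa1b, Hspa8, Hsph1 and Bag3. Over all 11717 genes 9.76% rose in that comparison. No tested member fell in PQ over control, where 9.45% of all genes did, and neither edgeR at an unadjusted p under 0.05 nor DESeq2 or limma gave any, with counts of 0, 0 and 0. In NAC over control 1 member rose, Hspa8, beside 9.01% of all genes. None fell, beside 9.64% of all genes, although 2 members, Hsp90aa1 and Hspe1, were lower at an unadjusted p under 0.05 in edgeR, and 0 were called lower by DESeq2 or by limma. In PQ over NAC 4 members were called higher, Hspa1a, Hspa1b, Hsph1 and Bag3, beside 16.0% of all genes, and 0 were called lower, beside 15.7%, with 0 at an unadjusted p under 0.05 in edgeR and 0 called by DESeq2 or limma. The median log2 fold change of the 9 tested members was 0.33 in PQ over control, 0.07 in NAC over control and 0.22 in PQ over NAC, where all genes tested had medians of 0.00. The 3 comparisons share libraries and are given side by side. Without PQ 1 the number of members called in PQ over control was 3, in a fit where 866 genes were called in place of 2250, so the shares above do not apply to it. The number of members called in NAC over control was 0 with the labelled protocol as a covariate and 0 without control 1 or without NAC 1. Without control 2 it was 2, Hspe1 being called lower beside Hspa8.

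**Figure D2:**
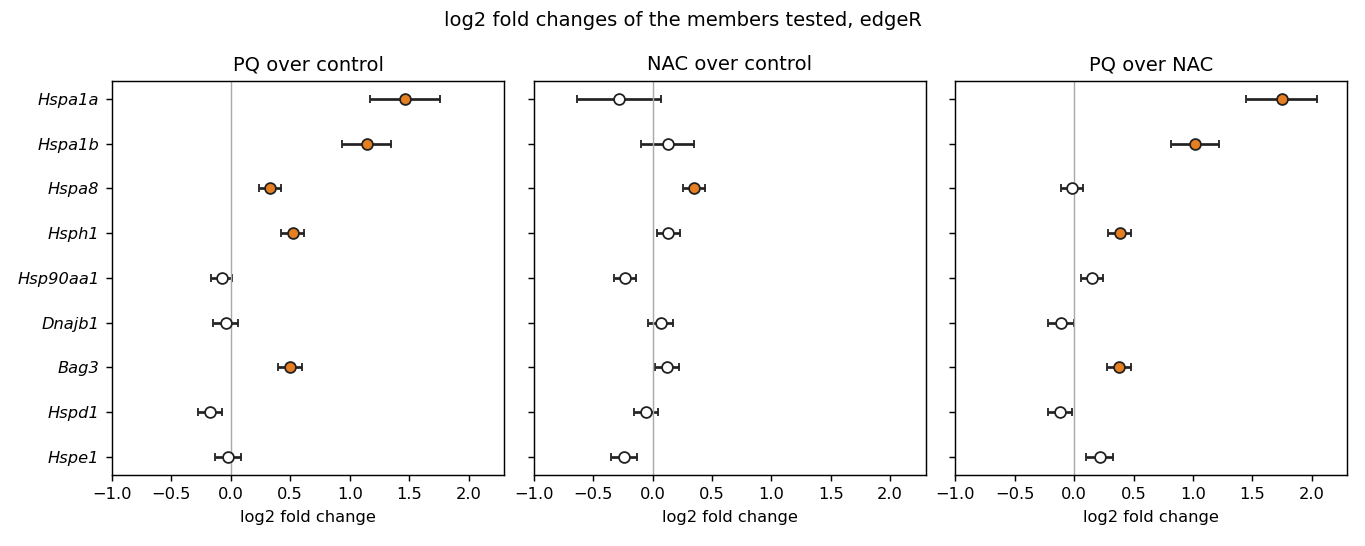
Log2 fold change of the 9 tested genes in PQ over control, NAC over control and PQ over NAC, with bars of 1 SE derived from edgeR's F statistic and filled points for called genes. Hspa1a and Hspa1b lie farthest to the right in PQ over control, at 1.47 and 1.14, and Hspa8 is the only filled point in NAC over control, at 0.35.

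Hspa1a and Hspa1b encode the stress-inducible HSP70 proteins of the cytosol and lie near each other on chromosome 17. Their annotated coding sequences, of 1926 and 1929 bases, are 99.48% identical, with 10 edits between them, whereas each is under 75% identical to that of Hspa8 (74.65% for Hspa1a and 74.86% for Hspa1b). Reads can therefore be split between the pair, and the expected count was fractional in 5 of 6 libraries for Hspa1a and in 6 of 6 for Hspa1b. The 250 bases before the start of each gene are shown because both genes rose in PQ and because they show how alike the pair is outside the coding sequence: they differ at 3 of 250 bases. They come from RefSeq on GRCm38.p6, minus strand, at chr17:34972157-34972406 for Hspa1a and chr17:34959239-34959488 for Hspa1b, each ending at the base before the gene start. Capitals mark the fixed letters of a paired heat shock unit, GAANNTTC, whose first base lies 104 bases before the start in both.
Hspa1a: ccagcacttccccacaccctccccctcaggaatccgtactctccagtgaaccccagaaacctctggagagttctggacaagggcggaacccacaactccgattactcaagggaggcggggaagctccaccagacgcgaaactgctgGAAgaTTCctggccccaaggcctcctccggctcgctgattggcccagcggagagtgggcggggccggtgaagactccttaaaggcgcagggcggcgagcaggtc
Hspa1b: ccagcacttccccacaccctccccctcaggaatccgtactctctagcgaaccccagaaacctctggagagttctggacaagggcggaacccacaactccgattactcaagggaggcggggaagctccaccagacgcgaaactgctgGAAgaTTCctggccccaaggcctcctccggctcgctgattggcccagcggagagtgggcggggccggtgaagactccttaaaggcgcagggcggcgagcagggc

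Hspa1a had 2.39 and 3.44 CPM in control 1 and 2, 10.03 and 6.06 CPM in PQ 1 and 2, and 2.04 and 2.78 CPM in NAC 1 and 2. Both PQ libraries lay above every control and NAC library, whose ranges overlapped. The counts behind these values were small, from 22.0 expected counts in NAC 1 to 105 in PQ 1. Hspa1a rose 2.76-fold in PQ over control (log2 fold change 1.47, SE 0.29, adjusted p = 0.00169) and was 3.36-fold higher in PQ than in NAC (log2 1.75, SE 0.30, adjusted p = 0.000204). The rise over control rested in part on PQ 1: without that library the log2 fold change was 1.05 (adjusted p = 0.0787), where the other libraries left out gave adjusted p from 0.0009 upward. On log2(FPKM + 1) in limma, where the pseudocount is as large as the level, the log2 fold change was 0.91 over control and 1.02 over NAC, and both stayed called. NAC over control had a log2 fold change of −0.28 (adjusted p = 0.645).

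Hspa1b had 4.58 and 5.96 CPM in control, 11.3 and 12.1 CPM in PQ and 5.29 and 6.25 CPM in NAC. The PQ libraries were again the highest and did not overlap with the other groups, and the control and NAC ranges overlapped. Hspa1b rose 2.21-fold in PQ over control (log2 1.14, SE 0.21, adjusted p = 0.000697) and was 2.03-fold higher in PQ than in NAC (log2 1.02, SE 0.20, adjusted p = 0.000698). Both calls held in 13 of 13 alternative settings. Its log2 fold change in NAC over control was 0.13 (adjusted p = 0.756).

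Because of the shared reads, the 2 genes were also added and fitted as 1. The sum was 6.97 and 9.40 CPM in control, 21.3 and 18.2 CPM in PQ and 7.34 and 9.03 CPM in NAC. Both PQ libraries had more than the highest of the other 4 libraries, and the 2 NAC libraries lay inside the control range. The sum rose 2.41-fold in PQ over control (log2 1.27, SE 0.18, adjusted p = 0.000111), was 2.42-fold higher in PQ than in NAC (log2 1.27, SE 0.18, adjusted p = 2.9e-05), and had a log2 fold change of −0.01 in NAC over control (adjusted p = 0.989). Hspa1b over Hspa1a in FPKM was 1.86 and 1.73 in control, 1.12 and 1.98 in PQ and 2.62 and 2.196 in NAC, and PQ 1 had the lowest ratio of the 6.

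**Figure D3:**
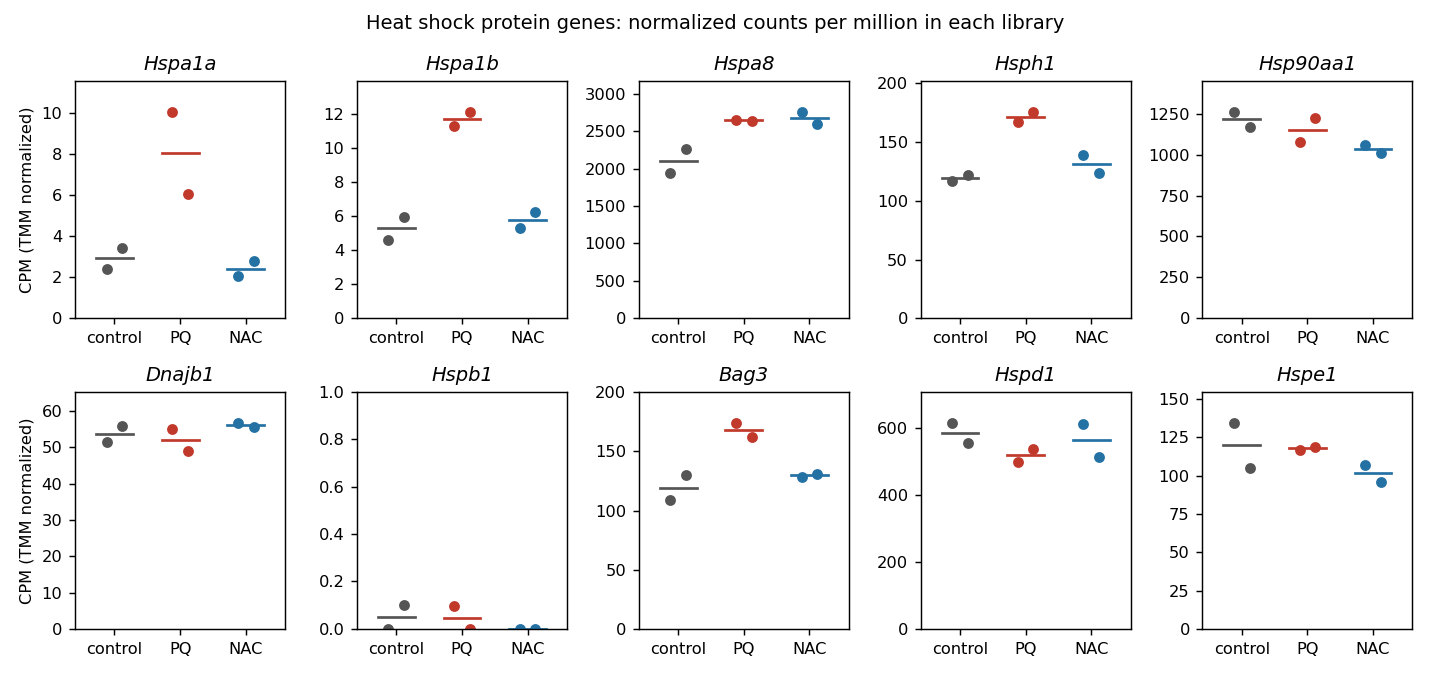
TMM-scaled CPM of each of the 10 genes in the 6 libraries, with 1 point per library, a line at the mean of each group and a separate axis for each gene. The PQ points of Hspa1a, Hspa1b, Hsph1 and Bag3 lie above all control and NAC points, and Hspa8 is lowest in control.

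Hspa8 encodes HSC70, the HSP70 that folds proteins in unstressed cells. It had 1938 and 2264 CPM in control, 2648 and 2635 CPM in PQ and 2755 and 2601 CPM in NAC. Both control libraries were lower than all 4 treated libraries, and the PQ and NAC ranges overlapped. Hspa8 rose 1.26-fold in PQ over control (log2 0.33, SE 0.09, adjusted p = 0.0159) and 1.27-fold in NAC over control (log2 0.35, SE 0.09, adjusted p = 0.0104), and its log2 fold change in PQ over NAC was −0.02 (adjusted p = 0.893). Both calls were lost when some single libraries were left out. In PQ over control the log2 fold change was 0.22 without control 1 (adjusted p = 0.196), 0.33 without PQ 1 (adjusted p = 0.0969) and 0.33 without PQ 2 (adjusted p = 0.0640), the lowest adjusted p over the libraries left out being 0.00529. For NAC over control it was 0.24 without control 1 (adjusted p = 0.153) and 0.31 without NAC 1 (adjusted p = 0.117), with a lowest adjusted p of 0.00341, and 0.30 with the labelled protocol as a covariate (adjusted p = 0.0860).

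Hsph1 encodes an HSP110 protein that exchanges the nucleotide of HSP70 and helps dissolve aggregates. It had 117 and 122 CPM in control, 167 and 176 CPM in PQ and 139 and 123 CPM in NAC. The PQ libraries were the highest, and no group overlapped with another. Hsph1 rose 1.43-fold in PQ over control (log2 0.52, SE 0.10, adjusted p = 0.000986), a call kept in 13 of 13 alternatives, and was 1.31-fold higher in PQ than in NAC (log2 0.38, SE 0.10, adjusted p = 0.00503). The difference from NAC was no longer called without PQ 2 (adjusted p = 0.0588) or without NAC 2 (adjusted p = 0.0786), the other libraries left out giving values down to 0.00146. NAC over control gave a log2 fold change of 0.13 (adjusted p = 0.380). A stretch of 30 bases after the first annotated start of Hsph1 is shown because it holds a triple unit, TTCNNGAANNTTC, the fixed letters of which are in capitals; it lies at chr5:149636287-149636316 of GRCm38.p6, minus strand, from RefSeq.
Hsph1: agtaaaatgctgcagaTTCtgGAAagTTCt

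Hsp90aa1 encodes the stress-responsive cytosolic HSP90. It had 1261 and 1170 CPM in control, 1078 and 1223 CPM in PQ and 1060 and 1013 CPM in NAC. The NAC libraries were the lowest and did not overlap with either other group, while control and PQ overlapped. The log2 fold change was −0.08 in PQ over control (adjusted p = 0.603), −0.23 in NAC over control (adjusted p = 0.0891) and 0.15 in PQ over NAC (adjusted p = 0.227). Hsp90aa1 passed in none of the 3 comparisons.

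Dnajb1 encodes HSP40, the J protein that delivers clients to HSP70. It had 51.4 and 55.7 CPM in control, 54.9 and 49.0 CPM in PQ and 56.7 and 55.6 CPM in NAC. The PQ libraries lay on both sides of control 1, and both were lower than the NAC libraries. The log2 fold change was −0.04 in PQ over control (adjusted p = 0.827), 0.07 in NAC over control (adjusted p = 0.717) and −0.11 in PQ over NAC (adjusted p = 0.463). The expected count of Dnajb1 was fractional in 6 of 6 libraries, so reads may be shared with other genes.

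Hspb1, the small heat shock protein HSP27, had 0 and 1 expected counts in control, 1 and 0 in PQ and 0 and 0 in NAC. Hspb1 was thus seen as a trace in 1 control and 1 PQ library. In the 4 libraries at 0, a count of 0 allows up to 3 counts, or 0.2804 to 0.3099 CPM, for counting error only. A difference between groups was not detectable at this depth, and no fold was computed.

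Bag3 encodes the partner of HSP70 and small heat shock proteins that directs clients to selective autophagy. It had 109 and 130 CPM in control, 174 and 162 CPM in PQ and 128 and 131 CPM in NAC. The PQ libraries were the highest without overlap, and the NAC values lay close to control 2. Bag3 rose 1.41-fold in PQ over control (log2 0.50, SE 0.10, adjusted p = 0.00213), a call kept in 13 of 13 alternatives, and was 1.30-fold higher in PQ than in NAC (log2 0.38, SE 0.10, adjusted p = 0.00846). Without PQ 1 or NAC 1 the difference from NAC was no longer called (adjusted p = 0.0946 and 0.0633), the lowest value over the libraries left out being 0.00151. For NAC over control the log2 fold change was 0.12 (adjusted p = 0.459). The last 30 bases of the Bag3 window are shown because they hold a GAANNTTC pair after the gene start, in capitals, at chr7:128523603-128523632 of GRCm38.p6, plus strand, from RefSeq.
Bag3: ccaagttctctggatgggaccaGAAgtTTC

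Hspd1 encodes HSP60, the barrel of the mitochondrial chaperonin, and Hspe1 encodes HSP10, its lid. Hspd1 had 616 and 556 CPM in control, 499 and 538 CPM in PQ and 613 and 514 CPM in NAC. Both PQ libraries lay below both control libraries, and NAC overlapped with each of the other groups. The log2 fold change of Hspd1 was −0.18 in PQ over control (adjusted p = 0.245), −0.06 in NAC over control (adjusted p = 0.757) and −0.12 in PQ over NAC (adjusted p = 0.389).

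Hspe1 had 134 and 105 CPM in control, 117 and 119 CPM in PQ and 107 and 95.6 CPM in NAC. Control 1 was the highest of the 6, the control range held both PQ values, and the NAC libraries were lower than the PQ libraries. The log2 fold change of Hspe1 was −0.02 in PQ over control (adjusted p = 0.914), −0.24 in NAC over control (adjusted p = 0.155) and 0.22 in PQ over NAC (adjusted p = 0.159). The NAC comparison depended on both control libraries: its log2 fold change was −0.05 without control 1 (adjusted p = 0.832) and −0.41 without control 2 (adjusted p = 0.0105), and −0.15 with the labelled protocol as a covariate (adjusted p = 0.516). Hspd1 over Hspe1 in FPKM was 1.49 and 1.72 in control, 1.39 and 1.48 in PQ and 1.86 and 1.75 in NAC. Hspe1 starts 216 bases from the second annotated start of Hspd1, on the opposite strand, and the RefSeq windows of that start and of Hspe1 have 285 bases in common. A 30-base stretch of that shared region is shown because it holds an array of 4 inverted units (capitals, TTCNNGAA and GAANNTTC overlapping), whose first base lies 89 bases before the Hspe1 start, at chr1:55088053-55088082 of GRCm38.p6, plus strand.
Hspe1: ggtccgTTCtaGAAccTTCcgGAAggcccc

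The labelled protocol allowed a comparison of control and PQ within each protocol, and of NAC with control 2. For Hspa1a the log2 CPM difference was 1.98 for PQ 1 less control 1 and 0.78 for PQ 2 less control 2. For Hspa1b it was 1.26 and 1.00, and for Hsph1 0.52 and 0.52. For Bag3 it was 0.68 and 0.32, and for Hspa8 0.45 and 0.22. For all 5 called genes both PQ libraries lay above both control libraries, so a higher PQ value within each protocol follows from that and is no further support. Each difference except that of Hsph1, equal to 2 decimals, was larger in the pair labelled column kit and Illumina. Between the control libraries, control 1 less control 2, the same genes differed by −0.49 (Hspa1a), −0.37 (Hspa1b), −0.07 (Hsph1), −0.26 (Bag3) and −0.22 (Hspa8). For NAC 1 and NAC 2 less control 2, Hspa8 differed by 0.28 and 0.20, beside the difference of −0.22 between the controls, and its rise in NAC was not called with the labelled protocol as a covariate (adjusted p = 0.0860). Against the same control library, both NAC libraries were lower for Hspa1a (−0.70 and −0.29) and Hsp90aa1 (−0.14 and −0.21), and both were higher for Hsph1 (0.18 and 0.01). The signs differed between NAC 1 and NAC 2 for Hspa1b (−0.17 and 0.07), Bag3 (−0.02 and 0.02), Dnajb1 (0.03 and −0.00), Hspd1 (0.14 and −0.11) and Hspe1 (0.03 and −0.14). In PQ, Hsp90aa1 (−0.23 and 0.06), Dnajb1 (0.09 and −0.18) and Hspe1 (−0.20 and 0.17) differed in sign between the PQ pairs, and Hspd1 was lower in PQ in both (−0.30 and −0.05).

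Heat shock element letters were searched in the RefSeq windows of 300 bases, from 250 before to 50 after each gene start, on both strands. The paired forms were GAANNTTC and TTCNNGAA and the triple forms GAANNTTCNNGAA and TTCNNGAANNTTC, of which each triple form holds both paired forms. A window was found for 8 of the 10 genes, 11 windows in all. The set of windows used here held none for Hspa8 and Hsp90aa1. A paired form was present for 7 of the 8, and a triple form for 3, Hspd1, Hspe1 and Hsph1. Over all 32851 windows of the same length 15.1% held a paired form and 0.603% a triple form, or 17% and 0.662% of 27025 genes. The members were named as heat shock genes, so their share is a description. Among other chaperone genes with a window, 15 of 50 held a paired form and 2 of 50 (Chordc1 and Dnajb6) a triple form. Hspb1, seen here at 1 expected count or fewer in each library, held pairs 117 and 97 bases before its start. Dnajb1 held neither form in its 2 windows. Among the genes that rose in PQ and had a window, Hspa1a, Hspa1b and Bag3 held only a pair and Hsph1 a triple. Hspd1 and Hspe1, whose triples are the same bases read from either strand, passed in no comparison. A match describes letters and shows no binding. Only exact letters within these windows were searched, so a missing match does not show that an element is absent.

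**Figure D4:**
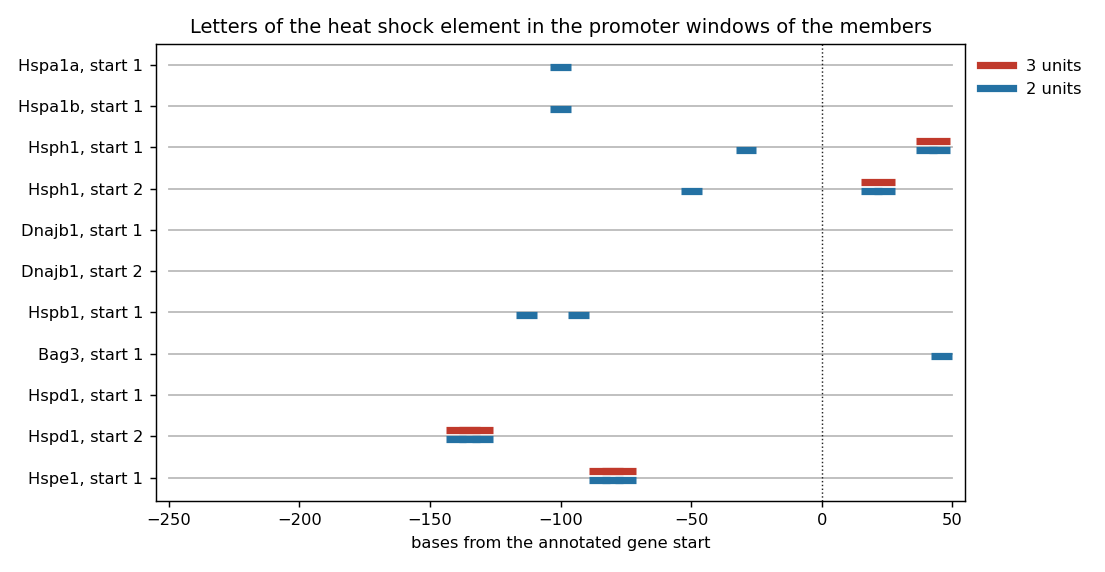
Positions of paired and triple heat shock element letters in the 300-base RefSeq windows of the members with a window in the set used, in bases from the gene start. Hspa1a and Hspa1b carry their pair at the same distance, 104 bases before the start, and Hspd1 and Hspe1 carry 1 array in common, 144 bases before the second Hspd1 start and 89 bases before the Hspe1 start.

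A further part of the chaperone network was read from 8 lists holding 65 genes, of which 57 were tested. The lists leave out chaperones of the endoplasmic reticulum and include heat shock factors and mitochondrial proteases. In PQ over control 4 rose (7.02%, beside 9.76% of all genes) and 6 fell (10.53%, beside 9.45%), with a median log2 fold change of −0.03. In NAC over control 1 rose (1.75%, beside 9.01%) and 10 fell (17.5%, beside 9.64%), with a median of −0.10. PQ over NAC had 13 called higher (22.8%, beside 16.0%) and 3 called lower (5.26%, beside 15.7%), with a median of 0.10, beside a median of 0.00 over all genes in each. The number called in PQ over control, 10 in all, was 3 without PQ 1 and 6 without PQ 2. The 11 called in NAC over control became 6 without control 2, 6 without NAC 1, 4 without NAC 2, 6 with the labelled protocol as a covariate and 5 with limma. The 16 called in PQ over NAC became 9 without PQ 2 and 9 without NAC 2. The heat shock factor list also holds the gene of a protein that binds these factors, and 3 of its 4 genes were tested. In each comparison 0 of them were called by edgeR, with 0 at an unadjusted p under 0.05 and 0 called by DESeq2 or limma. Hsf1, the main stress-responsive factor, had a log2 fold change of −0.14 in PQ over control (adjusted p = 0.463) and −0.05 in NAC over control (adjusted p = 0.835), and Hsf2 had 0.07 (adjusted p = 0.760) and −0.13 (adjusted p = 0.530).

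Of 7 other small heat shock genes 3 were tested, of which 2 rose in PQ over control, beside 9.76% of all genes. All 3 fell in NAC over control, beside 9.64% of all genes. They included the largest rise and the largest fall among the genes of the lists. Hspb8, which works with BAG3 in the delivery of clients to autophagy, had 83.7 and 95.9 CPM in control, 183 and 168 CPM in PQ and 63.9 and 69.0 CPM in NAC. The 3 groups did not overlap, with PQ high and NAC low. Hspb8 rose in PQ over control (log2 0.97, SE 0.10, adjusted p = 4.3e-06) and fell in NAC over control (log2 −0.43, SE 0.11, adjusted p = 0.00632), the fall not being called without control 2 (adjusted p = 0.0509) or NAC 1 (adjusted p = 0.0812). Cryab, the small heat shock protein αB-crystallin, had 22.0 and 29.2 CPM in control, 39.6 and 48.7 CPM in PQ and 11.05 and 9.72 CPM in NAC. Its groups were likewise apart, with PQ high and NAC low. Cryab rose in PQ over control (log2 0.78, SE 0.15, adjusted p = 0.00111) and fell in NAC over control (log2 −1.30, SE 0.17, adjusted p = 2.3e-05), in 13 of 13 alternatives each. Hspb6 was called lower in NAC over control (log2 −0.33, adjusted p = 0.0406), a call kept in 2 of 13 alternatives and lost when any 1 of the 6 libraries was left out (adjusted p from 0.0594 to 0.238).

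Of 10 other J protein genes tested, 2 rose in PQ over control, beside 9.76% of all genes. Dnajb4 had 83.0 and 81.9 CPM in control, 124 and 126 CPM in PQ and 80.6 and 71.6 CPM in NAC. Both PQ libraries lay above all others. Dnajb4 rose in PQ over control (log2 0.60, SE 0.10, adjusted p = 0.000329) in 13 of 13 alternatives. Dnajb2 also rose (log2 0.49, adjusted p = 0.0196), but not with DESeq2 (adjusted p = 0.0572), without control 1 (0.0782) or without PQ 1 (0.254). For NAC over control edgeR called 0 of the 10, as did DESeq2 and limma, and 1 was higher at an unadjusted p under 0.05.

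Of 11 genes for other HSP90 proteins and their partners, 2 fell in PQ over control, and 1 rose and 2 fell in NAC over control. For the lists of this paragraph, the shares over all genes were 9.45% falling in PQ over control, and 9.01% rising and 9.64% falling in NAC over control. Fkbp5, an immunophilin, fell in PQ over control (log2 −0.36, adjusted p = 0.0116, or 0.161 without PQ 1) and rose in NAC over control (log2 0.32, adjusted p = 0.0218). The rise was lost without control 2 (adjusted p = 0.0590), NAC 1 (0.0736) or NAC 2 (0.122) and with the labelled protocol as a covariate (0.0966). Ahsa1, an activator of HSP90, fell in PQ over control (log2 −0.34, adjusted p = 0.0207), but not without control 2 (0.0542), PQ 1 (0.135) or PQ 2 (0.108). Stip1, which links HSP70 to HSP90, fell in NAC over control (log2 −0.32, adjusted p = 0.0161), but not without control 1 (0.0795) or NAC 2 (0.164), with the covariate (0.0826) or with limma (0.0527). Fkbp4 (log2 −0.30, adjusted p = 0.0313) was called lower there in 3 of 13 alternatives as well, a call lost without any 1 of the 6 libraries (adjusted p from 0.0510 to 0.239). Of 8 other HSP70 and HSP110 genes 5 were tested, and 1, Hspa4l of the HSP110 family, fell in NAC over control (log2 −0.33, adjusted p = 0.0256), but not without control 2 (0.0555), NAC 1 (0.0873) or NAC 2 (0.149) or with limma (0.0839). Of 5 other BAG genes 1, Bag4, fell in PQ over control (log2 −0.43, adjusted p = 0.0150), but not without control 1 (0.0808), PQ 1 (0.137) or PQ 2 (0.0544).

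Of 8 subunits of the cytosolic chaperonin, 1 fell in PQ over control (beside 9.45% of all genes) and 2 in NAC over control (beside 9.64%). Cct5 fell in PQ over control (log2 −0.25, adjusted p = 0.0458) and in NAC over control (log2 −0.26, adjusted p = 0.0425), both calls kept in 3 of 13 alternatives and lost without any 1 of the 6 libraries (adjusted p from 0.0648 to 0.276 and from 0.0691 to 0.183). Tcp1 fell in NAC over control (log2 −0.36, adjusted p = 0.0144), but not without control 2 (0.0827) or NAC 2 (0.192) or with limma (0.0654). Of 12 other genes of mitochondrial protein quality control, 2 fell in PQ over control and 2 in NAC over control, beside the same shares of all genes. Hspa9, which encodes the mitochondrial HSP70, had 1737 and 1133 CPM in control, 1048 and 1141 CPM in PQ and 795 and 726 CPM in NAC. Control 1 was far above the other 5 libraries, and the NAC libraries were the lowest. Hspa9 fell in NAC over control (log2 −0.92, SE 0.14, adjusted p = 8.0e-05), in 13 of 13 alternatives, but by less without control 1 (log2 −0.58). Within the labelled protocol NAC 1 and NAC 2 differed from control 2 by −0.51 and −0.64 in log2 CPM. PQ over control was at −0.39 for Hspa9 (adjusted p = 0.05001), with −0.73 for PQ 1 less control 1 and 0.01 for PQ 2 less control 2. Lonp1, a matrix protease, fell in PQ over control (log2 −0.42, adjusted p = 0.00572, or 0.0899 without PQ 1) and in NAC over control (log2 −0.79, adjusted p = 1.6e-05). Dnaja3 fell in PQ over control (log2 −0.36, adjusted p = 0.0153), but not without control 1 (0.0672), PQ 1 (0.0824) or PQ 2 (0.113).

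**Figure D5:**
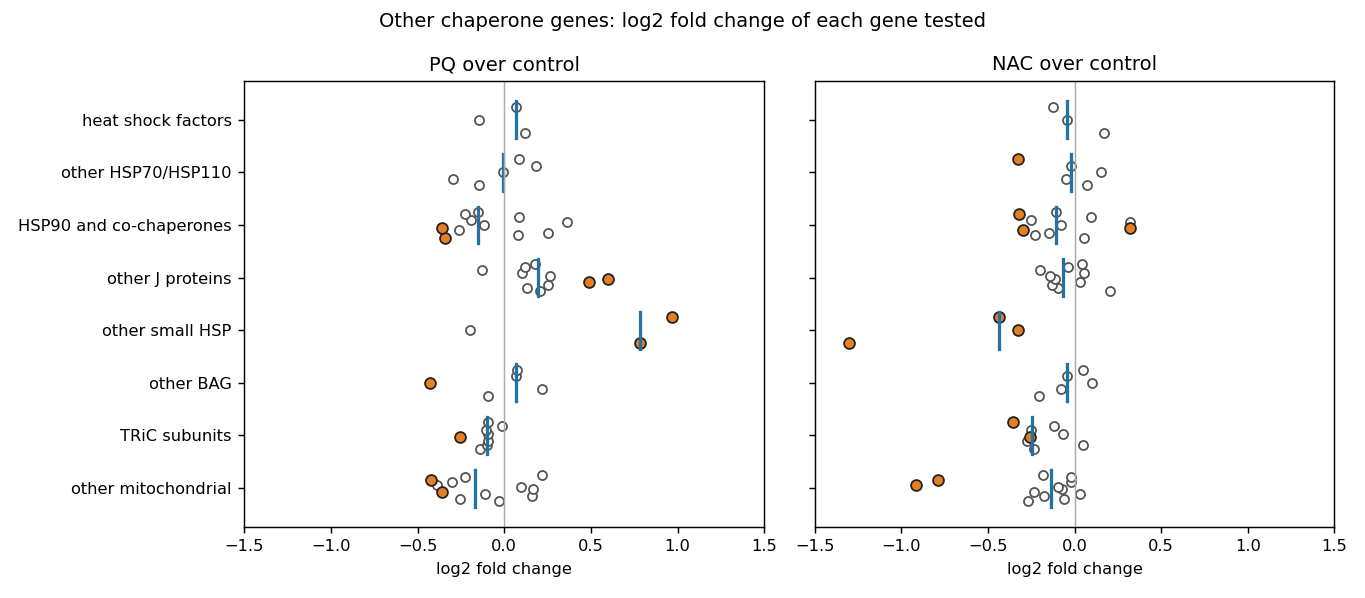
Log2 fold change of the tested genes of each list of other chaperone genes in PQ over control and NAC over control, with 1 point per gene, filled where called, and a line at the median. The small heat shock proteins spread widest, from Hspb8 at 0.97 in PQ over control to Cryab at −1.30 in NAC over control.

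The genes most like Dnajb1 across the 6 libraries, by Pearson's r of log2 CPM, were 1110006O24Rik (0.993), Chpf (0.986) and Habp4 (0.979), and those most like Hspd1 were Sgcb (0.993), Itgb3bp (0.991) and Bmpr2 (0.990). The 6 points share their depth and groups, and genes were ranked among all those tested outside the lists, so these coefficients describe the closest patterns and carry no test.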

How the data were processed

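RNA-seq of 6 NSPC libraries was used. The tables the authors deposited give each gene an expected count, in which reads shared between genes are split, and an FPKM. The submitters' notes name TopHat2 2.0.11 and Cufflinks 2.1.1 for control 1 and PQ 1, and HISAT2 2.0.4, Bowtie2 2.2.5 and RSEM for the others, although all tables have RSEM-type columns. The methods name a stranded kit; whether counting used strand is not stated. Genes not listed were taken as 0. Totals ranged from 9680436 to 10698241. Expected counts were rounded and tested with edgeR 4.0.16 in R 4.3.3 (TMM, glmQLFTest, 6 libraries, mean FPKM of at least 1, Benjamini-Hochberg, threshold 0.05, two-sided). Each SE given is the absolute log2 fold change divided by the square root of edgeR's F statistic. The procedure was tested on simulated data with the same spread for every gene and no protocol difference, settings that these libraries may not meet. Alternatives were DESeq2 1.42.0, its size factors, no filter, only the 4 libraries compared, the labelled protocol as a covariate, limma 3.58.1 on log2(FPKM + 1) and log2(FPKM + 0.1), and leaving out each library. Named genes are the 10 members, every gene of the chaperone lists called over control, Hsf1, Hsf2 and the 3 genes most like Dnajb1 and Hspd1. Single cell type markers, and Chordc1 and Dnajb6, were named after their values were seen. Members and lists were chosen with earlier results of these data known. Other experiments of the study were not analysed here.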

Additional observations from a re-analysis of the deposited data

How the results depend on the processing

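The counts of genes called and the log2 fold changes of the tested members, of the sum of Hspa1a and Hspa1b, of Hsf1 and Hsf2 and of the list genes in comparisons where they were called were recomputed under 13 alternatives, of which 6 left out 1 library. Marker calls were recomputed with DESeq2 and limma alone, and ratios, medians, differences within a protocol and motif counts were not recomputed. The log2 fold changes of Hspa1b, Hsph1 and Bag3 in PQ over control kept direction and call in 13 of 13. With a lone library in a group, its spread is assumed to be that of the others. Genes called over libraries left out ranged from 866 to 2206 in PQ over control (2250 with all), 1286 to 2126 in NAC over control (2186) and 2343 to 4207 in PQ over NAC (3708). Members called ranged from 3 to 5 in PQ over control and 0 to 2 in NAC over control. With the labelled protocol as a covariate 0 were called in NAC over control. Genes of the other chaperone lists called ranged from 3 to 9, 4 to 9 and 9 to 18, and in NAC over control were 6 with the covariate and 5 with limma at either pseudocount.

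Directions turned for results that were not called. In PQ over control the log2 fold change over libraries left out ranged from −0.173 to 0.0101 for Hsp90aa1, −0.128 to 0.0359 for Dnajb1 and −0.192 to 0.164 for Hspe1, which was 0.0123 and 0.0124 with limma at pseudocounts 1 and 0.1. In NAC over control it ranged from −0.515 to 0.00372 for Hspa1a, −0.0496 to 0.330 for Hspa1b, −0.203 to 0.227 for their sum (0.0361 and 0.0490 with limma), −0.00137 to 0.257 for Bag3, −0.188 to 0.0661 for Hspd1, −0.110 to 0.0214 for Hsf1 (0.00157 and 0.00171 with limma) and −0.351 to 0.0668 for Hsf2. In PQ over NAC it ranged from −0.0609 to 0.0227 for Hspa8, which was 0.0355 with the covariate, and −0.242 to 0.0129 for Hspd1. The cause was not tested. Depth limits Hspb1, with at most 1 expected count in a library, and Hspa1a, with 22.0 to 105.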
